A study of Mus musculus with 24 samples.

Results

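The comparison described here is time in culture with NaHS: primary mouse alveolar type II cells after 24 h with the donor against cells after 6 h with it. The members were chosen by title and number 8 of the 24 samples of the series, 4 arrays for each time. Cells were isolated from mouse lung, grown for 3 days at an air-liquid interface in six-well plates until they formed a monolayer, and then received 100 µM sodium hydrosulfide (NaHS), a fast donor of the gas hydrogen sulfide (H2S). A vehicle group in DMEM, the culture medium, stands beside each time, also with 4 arrays. The 16 arrays of this experiment were fitted together, and the 8 arrays of the GYY4137 experiment were not used. The age, sex and strain of the mice are not given in the sources used here, which name no genetic change. The labels do not say whether replicates came from separate cultures or animals. The p-values therefore reflect only how these samples varied, which may be technical variation. Time with the donor and time in culture moved together, and all 6 h arrays lay in row 1 of their slide and all 24 h arrays in row 2, so time and row cannot be told apart.

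Alveolar type II cells make and recycle surfactant and act as progenitors of the flat type I cells that line the air space. After isolation they are known to lose surfactant gene expression in culture, to spread and to take on features of other epithelial states. H2S is made in cells by the enzymes Cbs, Cth and Mpst from sulfur amino acids and is oxidised in mitochondria by Sqor and Ethe1, and its donors are used to ask how the gas acts on epithelium.

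Total RNA was labelled with Cy3 and measured on 1-colour Agilent mouse arrays. Probes well above background made up 54.8% to 73.9% of an array, with 54.8% to 57.3% on slide 1 and 67.7% to 73.9% on slide 2. Slide 1 held replicates 1 and 3 of every group and slide 2 replicates 2 and 4, and the first principal component, with 64.2% of the variance, separated the slides. Slide was therefore a term of the fit reported here. Of the 25 tested genes on the list of surfactant and type II cell genes, 24 lay well above background on all 8 NaHS arrays, as did 19 of 20 type I genes, 16 of 21 macrophage genes, 20 of 22 fibroblast genes and 13 of 15 smooth muscle and pericyte genes. Tested genes had already passed a filter of at least 4 of 16 arrays, which in part sets these counts. Slc34a2, a type II marker of the list, was not among the tested genes. Type II markers were thus read with markers of other lung cells beside them, and the counts do not identify the labelled cell type. In these bulk samples, more cells of a type and more RNA per cell cannot be told apart. NaHS 24 h replicate 3 differed from the other NaHS 24 h arrays. Its mitosis genes were at the level of the 6 h arrays and its macrophage genes were the highest of the 8 NaHS arrays. Vehicle 24 h replicate 3 was likewise the highest vehicle 24 h array for both lists, with means of 1.275 and -0.63. The outlier check at the end did not mark NaHS 24 h replicate 3. Calls that end and list medians that move by over 1.5 times without it are given both ways. For the other arrays this was not done throughout.

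Few single genes passed the test. Of 33245 features (named genes, or probes without a gene name), 33 were called at a limma adjusted p under 0.05, which is 0.0993% of those tested. Of these 27 were higher at 24 h (0.0812%) and 6 lower (0.018%). At an unadjusted p under 0.05 there were 4570 features (13.7%). All 33 lay apart on both slides, and for 32 of them, all but Ank, the 4 arrays of 24 h lay wholly above or below the 4 of 6 h, 26 upward and 6 downward. Over all features the same was true of 3.59% upward and 2.18% downward, and separation on both slides of 8.45% upward and 8.23% downward. The change reached 2-fold for 12 of the 33.

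The count of calls changed with the arrays in the fit. With the 8 NaHS arrays alone limma called 0 features, although 4921 had an unadjusted p under 0.05. With 1 NaHS array left out 1 to 25 passed. Of the 16 arrays of the fit, each of 13 lowered the count to 16 or fewer when left out, the lowest being 1 without NaHS 24 h replicate 2. The other 3 left 26 calls (without vehicle 6 h replicate 1), 23 (without vehicle 24 h replicate 2) and 25 (without NaHS 24 h replicate 3, 17 of them among the 33). With the replicate number as a block in place of slide, 35 passed, of which 23 were among the 33. D630033O11Rik, Azin2, Ank, Atg2b, Akap7, Ephx2, 3830406C13Rik, Helb, Efs and 1 unnamed probe then missed the threshold, with limma adjusted p between 0.0557 and 0.0674. Of the 33, 18 had an adjusted p above 0.045 in the fit reported here, close under the limit. Without NaHS 24 h replicate 3, Gm38403, Tmem179, Cd53, Dysf, Ifi44, Ank, Atg2b, Akap7, Ephx2, 3830406C13Rik, Helb, 5830403F22Rik, Efs and 3 unnamed probes missed the threshold, with limma adjusted p between 0.0522 and 0.0931. With normexp background correction, 9 of the 33 missed it. Among these were Gm38403 (a change of 0.43), C1qa (0.091), Cd53 (0.62), D630033O11Rik (0.39), Ifi44 (0.46) and the unnamed probes A_30_P01026564 (0.25), A_30_P01025844 (0.52) and A_30_P01018430 (0.050). All 33 kept their direction under every alternative tried.

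The same direction was seen in cells without the donor. Vehicle cells had 706 features called over the same interval (2.12%), 401 higher and 305 lower. Of the 33 NaHS calls, 24 were also called in vehicle, all in the same direction, which is 72.7% of the NaHS calls and 3.40% of the vehicle calls, and all 33 had the same sign. Of the 706 vehicle calls, 694 had the same sign with NaHS. Their median change was 0.65 on the log2 scale in vehicle, where they were chosen, and 0.38 in the same direction with NaHS. The share of equal sign over all features was not counted. Both time effects come from the same fit and share the layout of times by slide row. No feature was called for the difference of the time effects, NaHS minus vehicle (0 by limma, 1558 at an unadjusted p under 0.05, or 4.69%, and a smallest adjusted p of 0.973). The 95% interval of the NaHS time effect lay within 2-fold either way for 72.4% of features.

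**Figure D1:**
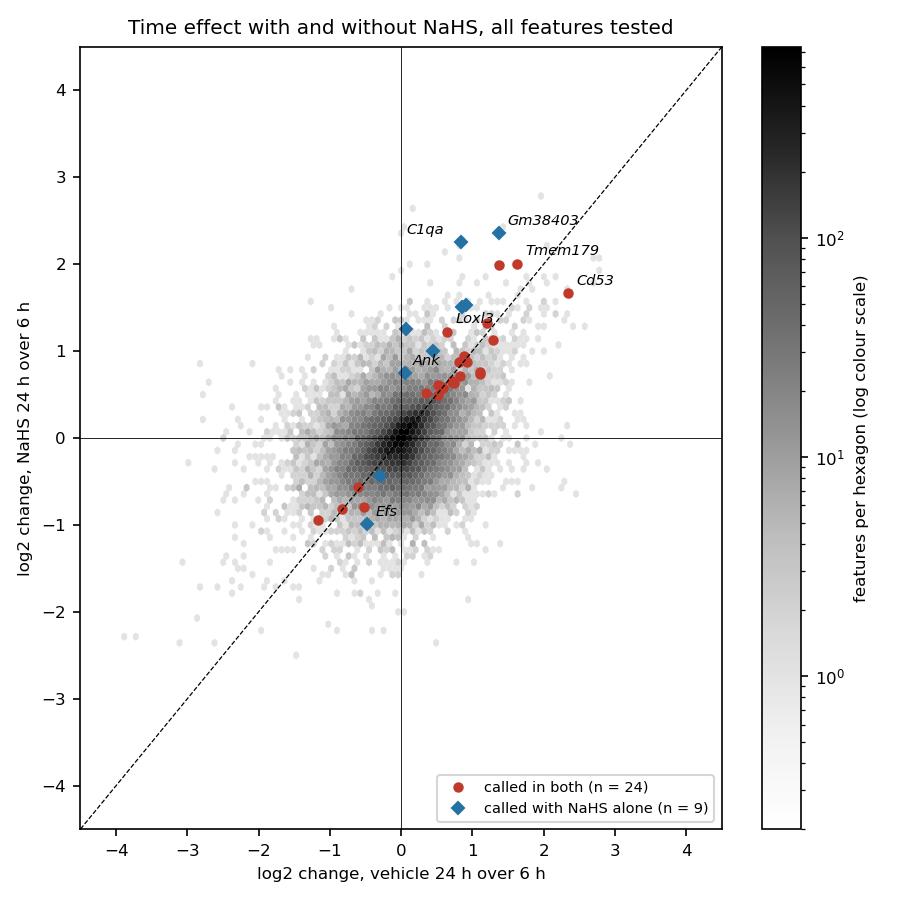
Log2 change from 6 h to 24 h in vehicle cells (horizontal) against the same in NaHS cells (vertical) for all 33245 features, as counts per hexagon on a log colour scale, with the 33 features called with NaHS as points. Red circles were also called in vehicle (24) and blue diamonds were not (9); all 33 lie in the quadrants of equal sign, and the dashed line marks equal change.

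Loxl3, an enzyme of the lysyl oxidase family that cross-links collagen and elastin, had the smallest p of all features tested. Its log2 signal over the 75th percentile of the array was 0.022, -0.16, -0.053 and -0.35 on NaHS 6 h replicates 1 to 4 and 1.30, 0.86, 1.31 and 0.90 on NaHS 24 h replicates 1 to 4, the order used throughout. The groups did not overlap, and the lowest 24 h array stood well clear of the highest 6 h array. The change was 1.23 ± 0.12 (log2, SE), or 2.34-fold, with a limma adjusted p of 0.00595. It was 1.32 within slide 1 and 1.13 within slide 2, and it was called under 28 of 32 alternatives, the most of any called gene. Its probe lies at chr6:83001888-83001947 (mm9, as the array design gives all probe positions here; exon and UTR positions were not analysed here). In vehicle Loxl3 rose by 0.65 ± 0.12.

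Foxc2, a forkhead transcription factor of mesenchyme and lymphatic endothelium, read 1.19, 1.17, 1.32 and 0.80 at 6 h and 2.38, 2.03, 2.21 and 1.86 at 24 h (probe chr8:123642693-123642752). All 24 h arrays were higher, by 1.0 ± 0.11 (limma adjusted p = 0.0112), and slide 1 with 1.04 and slide 2 with 0.96 gave nearly the same size. In vehicle its change of 0.45 ± 0.11 had an adjusted p of 0.0573 and was not called, and the difference of 0.56 ± 0.16 was not called either. Cd248, a membrane glycoprotein of pericytes and fibroblasts, was bright at both times, with 4.43, 4.40, 4.57 and 4.06 at 6 h and 5.60, 5.21, 5.24 and 5.19 at 24 h. The groups did not overlap and replicate 1 was the highest 24 h array. Cd248 rose by 0.95 ± 0.14 (adjusted p = 0.0387) and by 0.88 ± 0.14 in vehicle. Dysf, which encodes the membrane repair protein dysferlin, read -0.11, -0.29, 0.41 and -0.78 at 6 h and 1.47, 1.17, 1.06 and 0.81 at 24 h. Its rise was 1.32 ± 0.22 (limma adjusted p = 0.0498).

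**Figure D2:**
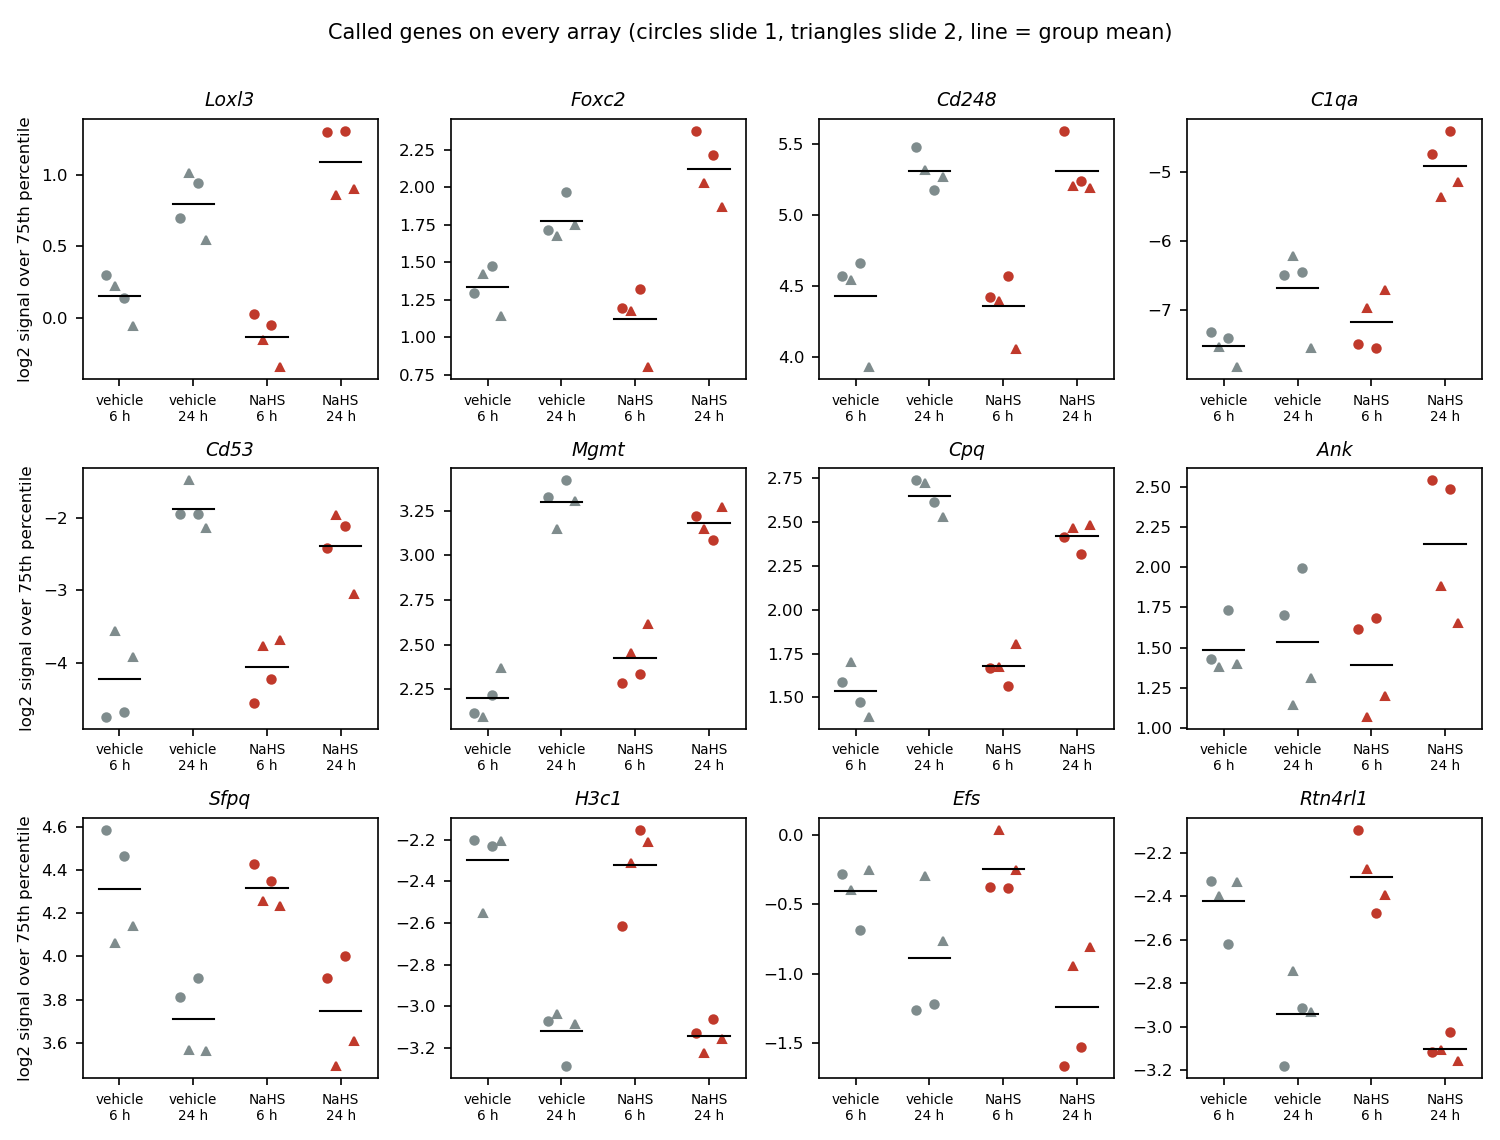
Log2 signal over the array's 75th percentile for 12 of the called genes on each of the 16 arrays, grey for vehicle and red for NaHS, circles for slide 1, triangles for slide 2, lines for group means (n = 4). Loxl3, Foxc2, Cd248, C1qa, Cd53, Mgmt and Cpq are higher on all 4 NaHS 24 h arrays than on any NaHS 6 h array, Ank is higher within each slide, and Sfpq, H3c1, Efs and Rtn4rl1 are lower.

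Enzymes that modify or cross-link collagen lay above 0 together. All 21 of 21 tested members had a positive change, where 48.0% of all features did. Their median was 0.31 (0.27 in vehicle) against -0.012 over all features. Only Loxl3 of them was called. Colgalt1, which adds galactose to collagen, had 0.55 ± 0.12 (adjusted p = 0.103), the prolyl hydroxylase subunit P4ha1 0.78 ± 0.23, Loxl2 0.85 ± 0.32 and the lysyl hydroxylase Plod1 0.38 ± 0.16. The median was 0.19 within slide 1 and 0.49 within slide 2. Of 26 collagen genes 22 lay above 0, with a median of 0.31 (0.48 in vehicle) and none called. Col8a1 had 1.01 ± 0.24 (adjusted p = 0.114) and Col8a2 0.89 ± 0.25. At the other end of the list, Col6a1 had -1.02 ± 0.38 and Col6a2 -1.37 ± 0.48, where the 6 h values of Col6a2 were 2.70, 3.02, 0.74 and 2.77 and its 24 h values 0.59, 0.55, 0.81 and 1.81. The Col6a2 groups overlapped, with replicate 3 low already at 6 h.

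Smooth muscle and pericyte genes had a median of 0.53 (0.63 in vehicle), with 12 of 15 above 0 and none called. Notch3, a receptor of mural cells, had 0.77 ± 0.15 (limma adjusted p = 0.0771), the actin-binding protein gene Cnn1 0.94 ± 0.28 and the myosin light chain gene Myl9 0.48 ± 0.18. Fibroblast genes were split in sign: 10 of 22 lay above 0 with a median of -0.070 (-0.16 without NaHS 24 h replicate 3), and Thy1 at 0.91 ± 0.22 and Pdgfra at -0.95 ± 0.26 had opposite signs. The mean of the smooth muscle list was 2.44, 2.24, 2.43 and 1.80 at 6 h and 2.58, 2.69, 2.44 and 2.44 at 24 h. Its summed signal ran from 9.89 to 10.5 (log2) over the 6 h arrays, and the lowest 24 h array, at 10.2, lay inside that range. The summed signal of the fibroblast list ran from 9.82 to 10.4 and from 9.82 to 10.4. The smooth muscle median was 0.20 within slide 1 and 0.58 within slide 2, and the collagen median 0.12 and 0.29. The part of such cells in the values of matrix genes was not tested.

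A pair of genes known from leukocytes rose. C1qa encodes a chain of the complement protein C1q, which macrophages make. No 6 h array (0 of 4) and every 24 h array (4 of 4) read it well above background, with -7.49, -6.96, -7.54 and -6.71 at 6 h and -4.74, -5.37, -4.41 and -5.15 at 24 h. All 24 h arrays were higher, with a fitted change of 2.26 ± 0.29 (limma adjusted p = 0.0246). On a rule that sets the dim group, array by array, at a floor, the 24 h mean was 3.38-fold higher. The floor is the lowest signal of any probe well above background, or the probe's own signal where higher. This fold depends on the background subtraction: with normexp the fitted change was 0.091 and not called. C1qa was not well above background on any vehicle array at either time. It met the filter on dim probes only through the 4 NaHS 24 h arrays, where it is high, so its test is no independent support, and with a filter of 8 arrays it was not tested. Without NaHS 24 h replicate 3 its fitted change was 2.10 (limma adjusted p = 0.0467), still called. The difference of the time effects was 1.42 ± 0.41, with an unadjusted p of 0.00465 and no call. Cd53, a tetraspanin of leukocytes, read -4.55, -3.76, -4.22 and -3.68 at 6 h and -2.42, -1.97, -2.11 and -3.06 at 24 h. It rose by 1.66 ± 0.28 (adjusted p = 0.0498) and by 2.34 ± 0.28 in vehicle. Without NaHS 24 h replicate 3 the change of Cd53 was 1.49, with an adjusted p of 0.0849 and no call.

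The macrophage list as a whole depended on the slide. Of 21 members 19 lay above 0, with a median of 1.17 (0.98 in vehicle). The NaHS median was 2.29 within slide 1 but -0.17 within slide 2. The 2 called, against 0.0812% of all features called higher, were C1qa and Cd53, with the limits given above. Without NaHS 24 h replicate 3 the median of the list was 0.52. The mean of the list was -3.11, -2.16, -2.88 and -1.80 at 6 h and -1.64, -2.17, -0.42 and -1.87 at 24 h. The summed signal of its members ran from 4.74 to 4.99 (log2) over the 6 h arrays and from 4.76 to 5.77 over the 24 h arrays, highest on replicate 3, and its part in the rise of C1qa and Cd53 was not tested. On slide 1 both 24 h arrays were above both 6 h arrays, on slide 2 the arrays of the times did not separate. Marco, a scavenger receptor of alveolar macrophages, read -1.76, -0.54, -1.32 and 0.63 at 6 h and 0.65, -0.21, 2.94 and 0.091 at 24 h, with overlap and a sign that changed with 1 alternative. Siglecf had a change of 1.86 ± 0.89 (adjusted p = 0.380). C1qc, which encodes another C1q chain, had 1.38 ± 0.49. C1qa had 2.94 within slide 1 and 1.57 within slide 2, and Cd53 had 2.12 and 1.21, with no feature called within either slide. Lymphocyte genes had a median of -0.11 (4 of 12 above 0) and neutrophil genes -0.076 (4 of 9), neither with a call; without NaHS 24 h replicate 3 these were -0.061 and -0.037.

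Ifi44, an interferon-induced gene, read -2.51, -2.60, -2.32 and -2.98 at 6 h and -1.75, -1.49, -1.43 and -2.22 at 24 h and rose by 0.88 ± 0.15 (limma adjusted p = 0.0498; vehicle 0.92 ± 0.15). It was the only call among 34 interferon response genes, of which 23 lay above 0 with a median of 0.15. That median was 0.31 within slide 1, 0.017 within slide 2 and 0.039 without NaHS 24 h replicate 3. Isg15 had 0.50 ± 0.16 with NaHS and 1.10 ± 0.16 in vehicle, where it was called, and Xaf1 0.51 ± 0.19 with NaHS.

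The other named rises belonged to varied functions. Mgmt, which encodes the enzyme that removes alkyl groups from guanine in DNA, read 2.29, 2.45, 2.34 and 2.62 at 6 h and 3.22, 3.15, 3.09 and 3.27 at 24 h. The groups were far apart relative to their spread, with a rise of 0.76 ± 0.097 (limma adjusted p = 0.0246), 0.84 within slide 1 and 0.67 within slide 2. Mgmt was the only call among 40 DNA repair genes, whose median was -0.14. Cpq, a secreted carboxypeptidase, read 1.67, 1.67, 1.57 and 1.81 at 6 h and 2.42, 2.46, 2.32 and 2.48 at 24 h. Its rise of 0.74 ± 0.088 (adjusted p = 0.0165) was called under 24 of 32 alternatives, and the vehicle rise was 1.11 ± 0.088.

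Ank, which encodes a membrane protein needed for pyrophosphate export, was the only called gene whose arrays overlapped between times. It read 1.62, 1.07, 1.68 and 1.20 at 6 h and 2.54, 1.89, 2.49 and 1.65 at 24 h: replicates 1 and 3 were higher than replicates 2 and 4 at both times, and within each slide both 24 h arrays were above both 6 h arrays. The rise was 0.75 ± 0.12 (limma adjusted p = 0.0498), 0.86 within slide 1 and 0.64 within slide 2. In vehicle Ank had 0.052 ± 0.12. The difference of 0.70 ± 0.17 had an unadjusted p of 0.00156 and was not called after adjustment.

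Ano10, a member of the anoctamin family of membrane proteins, rose by 0.58 ± 0.081 (adjusted p = 0.0282), with 6 h arrays at 2.17, 2.12, 2.21 and 2.22 and 24 h arrays at 2.83, 2.83, 2.65 and 2.72. Ano10 was the only call among 17 genes of epithelial sodium, chloride and water transport, whose median was -0.043 (-0.15 without NaHS 24 h replicate 3). Ephx2, the soluble epoxide hydrolase, rose by 0.59 ± 0.099, and Azin2, an antizyme inhibitor of polyamine metabolism, by 0.88 ± 0.14. Tmem179, which encodes a transmembrane protein, had -0.93, -1.15, 0.011 and -1.44 at 6 h and 1.42, 1.70, 1.0 and 0.39 at 24 h. Its rise of 2.01 ± 0.33 (limma adjusted p = 0.0498) was the largest among named genes above background on all 8 NaHS arrays. Atg2b, a lipid transfer protein of autophagy, rose by 0.66 ± 0.11. Akap7, an anchor of protein kinase A, rose by 0.62 ± 0.10, with 0.56 ± 0.15 for a second probe and -0.35 ± 0.27 for another. Hspb11, a part of the intraflagellar transport machinery, rose by 0.49 ± 0.072, while its second probe stayed near 0 at -0.0059 ± 0.21. For Hspb11 the rise is thus that of 1 probe of 2.

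Of the 33 calls 6 fell. They held 5 genes described in the next sentences and 5830403F22Rik, a gene of unnamed function with -0.95 ± 0.15. Efs, an adaptor protein of the Cas family that binds Src-type kinases, read -0.38, 0.035, -0.38 and -0.25 at 6 h and -1.67, -0.95, -1.53 and -0.81 at 24 h. It fell by 0.99 ± 0.15 on the log2 scale (limma adjusted p = 0.0458), and slide 1 with -1.22 changed more than slide 2 with -0.77. H3c1, a histone H3 gene of the replication-dependent cluster, read -2.61, -2.31, -2.15 and -2.21 at 6 h and -3.13, -3.23, -3.06 and -3.16 at 24 h. The 24 h arrays were close to each other and all below the 6 h arrays, a change of -0.82 ± 0.12 (adjusted p = 0.0282; vehicle -0.82 ± 0.12). Because histone H3 genes are near copies, its probe may read other members.

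Rtn4rl1, a receptor of the Nogo receptor family, had -2.09, -2.27, -2.48 and -2.39 at 6 h and -3.12, -3.11, -3.02 and -3.16 at 24 h, a change of -0.79 ± 0.11 (limma adjusted p = 0.0282). Sfpq, a splicing and paraspeckle protein, read 4.43, 4.25, 4.35 and 4.24 at 6 h and 3.90, 3.49, 4.0 and 3.61 at 24 h. All its 24 h arrays were lower, by -0.57 ± 0.079 (adjusted p = 0.0282), and its second probe had -0.29 ± 0.11. Helb, a DNA helicase, changed by -0.44 ± 0.074 (adjusted p = 0.0498). In vehicle Sfpq had -0.60 ± 0.079, Rtn4rl1 -0.52 ± 0.11, Efs -0.48 ± 0.15 and Helb -0.29 ± 0.074, all of the same sign.

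Cell division genes lay below 0 with no call among them. All 54 of 54 tested genes of mitosis and the spindle had a negative change, with a median of -0.35. Of them 27 had an unadjusted p under 0.05, where 6.44% of all features had one in this direction, and 0 passed after adjustment. In vehicle the median was -0.71 and 29 of the 54 were called lower, where 0.917% of all features were. The mean of the list was 1.69, 1.74, 1.51 and 1.76 on the NaHS 6 h arrays and 1.34, 1.02, 1.67 and 1.25 on the 24 h arrays. Replicate 3 at 24 h lay within the range of the 6 h arrays, and the other 24 h arrays lay below it. Without that array the median was -0.47, still with no call, and it was -0.11 within slide 1 and -0.64 within slide 2.

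Depdc1b, a regulator of mitotic entry and adhesion, had the smallest p of the list, with 0.054, 0.42, 0.20 and 0.56 at 6 h and -0.47, -0.66, -0.17 and -0.29 at 24 h. These groups did not overlap, and the change was -0.70 ± 0.18 (limma adjusted p = 0.130). Foxm1, the forkhead factor that drives late cell cycle genes, read 1.54, 1.55, 1.37 and 1.53 at 6 h and 1.02, 0.72, 1.45 and 0.77 at 24 h. Its replicate 3 overlapped the 6 h arrays, and the change was -0.51 ± 0.15 (adjusted p = 0.187). The spindle checkpoint gene Mad2l1 had -0.43 ± 0.12 and the mitotic kinesin Kif20a -0.42 ± 0.13. Kif22, a chromosome-binding kinesin, had -0.44 ± 0.14, with -0.19 within slide 1 and -0.70 within slide 2, and Prc1, which bundles the microtubules of the central spindle, had -0.46 ± 0.15.

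Genes of replication licensing and DNA synthesis had a median of -0.24, with 35 of 36 below 0, 13 at an unadjusted p under 0.05 and 0 called. In vehicle 16 were called lower (0.917% of all features), with a median of -0.45. Mcm4, a subunit of the replicative helicase, read 4.92, 5.01, 4.89 and 5.01 at 6 h and 4.58, 4.32, 4.80 and 4.48 at 24 h. Its groups did not overlap, and the change was -0.42 ± 0.11 (limma adjusted p = 0.141). The origin recognition gene Orc6 had -0.32 ± 0.090 and the licensing inhibitor Gmnn -0.37 ± 0.11. Without NaHS 24 h replicate 3 the median of the list was -0.32.

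**Figure D3:**
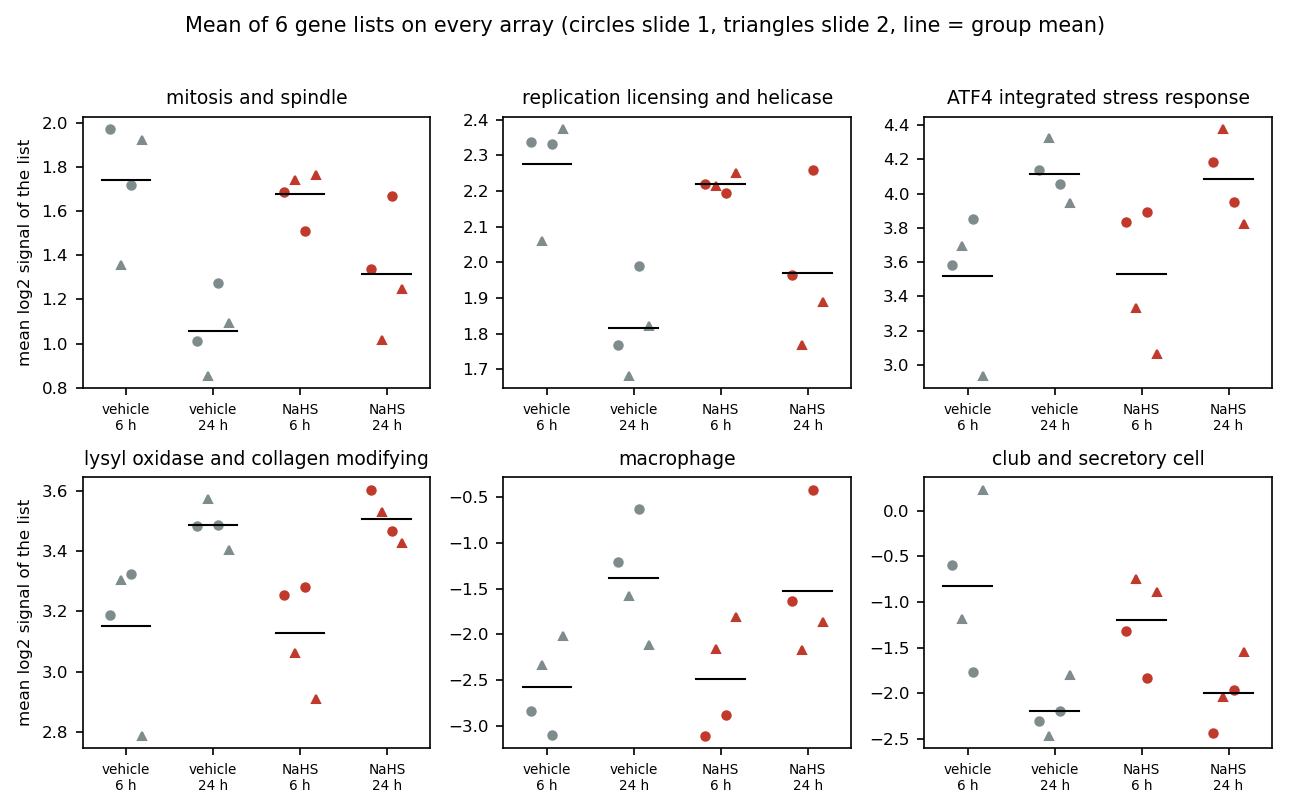
Mean log2 signal over the array's 75th percentile of 6 gene lists on each of the 16 arrays, grey for vehicle and red for NaHS, circles for slide 1, triangles for slide 2, lines for group means (n = 4). NaHS 24 h replicate 3 lies among the 6 h arrays for mitosis (1.67 against 1.51 to 1.76) and replication, and is the highest NaHS array for macrophage genes (-0.42).

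Promoters of the division genes were searched for known elements. The cell cycle homology region (CHR, TTTGAA or TTCGAA) and the CCAAT box (CCAAT) are known from promoters of late cell cycle genes, and both were searched on both strands in the 250 bases before the start of the gene, in the RefSeq promoters of GRCm38.p6. A CHR stood in 18 of 45 mitosis genes with an entry (40.0%), against 15.7% of all tested genes with one. A CCAAT box stood in 75.6% of them, against 39.5%. The E2F motif (TTTCCCGC, TTTGGCGC or TTTCGCGC) stood in 9 of 29 replication genes (31.0%), against 2.7%. Kif22 and Prc1, 2 genes of the mitosis list with a CHR in the last 150 bases, are shown as examples. They were not chosen by p alone, and no rank among the genes with a CHR is meant. CHR and CCAAT matches are in capitals, read 5′ to 3′ on the strand of the gene. The Kif22 stretch is chr7:127042421-127042570 (minus strand) and the Prc1 stretch is chr7:80294326-80294475 (plus strand), both GRCm38.p6.
Kif22: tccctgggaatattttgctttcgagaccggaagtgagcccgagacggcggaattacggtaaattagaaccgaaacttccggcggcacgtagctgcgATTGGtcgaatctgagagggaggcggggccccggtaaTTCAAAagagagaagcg
Prc1: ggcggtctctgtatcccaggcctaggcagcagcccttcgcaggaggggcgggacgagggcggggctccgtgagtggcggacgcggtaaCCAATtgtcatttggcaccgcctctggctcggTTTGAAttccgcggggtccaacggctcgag
In both, the CCAAT match lies upstream of the CHR match, and each motif reads on the plus strand in Prc1 and on the opposite strand of the gene in Kif22. A match describes the letters of the window and no binding.

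Inhibitors of the cell cycle were split in sign: 4 of 7 INK4 and KIP genes lay above 0, with a median of 0.060 and 0 called. Cdkn1a, which encodes the p21 inhibitor, read 3.88, 3.80, 4.19 and 3.98 at 6 h and 4.80, 4.58, 4.29 and 4.53 at 24 h. The groups did not overlap, and the change of 0.59 ± 0.12 missed the threshold (limma adjusted p = 0.0813), while the vehicle change of 0.75 ± 0.12 passed it. Cdkn2a had 1.14 ± 0.35 with NaHS and 1.94 ± 0.35 in vehicle, and its neighbour Cdkn2b had 0.66 ± 0.20 with NaHS and 0.89 ± 0.20 in vehicle, where both were called. Cdkn1b, which encodes p27, had 0.060 ± 0.13. Below 0 lay Cdkn2c with -0.37 ± 0.12, Cdkn1c with -0.56 ± 0.37 and Cdkn2d with -0.075 ± 0.10. For p53 target genes the slides gave nearly the same shift: 29 of 35 lay above 0 with a median of 0.16, 0.16 within slide 1 and 0.17 within slide 2. None was called with NaHS and 6 higher in vehicle, where 1.21% of all features were. Zmat3, an RNA-binding p53 target, had 0.29 ± 0.073, cyclin G1 (Ccng1) 0.41 ± 0.10 and Trp53inp1 0.42 ± 0.12.

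Histone genes of the clusters split by gene. Of 37 tested, 26 lay below 0 and the median was -0.27, with H3c1 as the only call. 16 had an unadjusted p under 0.05 downward and 8 upward, against 6.44% and 7.31% of all features. H2bc14 had 0.64 ± 0.15 and H2bc4 0.80 ± 0.21, while H4c12 had -0.47 ± 0.13. Many histone genes are near copies of each other, so the probes may share targets.

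Of the ATF4 pathway nearly every gene lay above 0. ATF4 is the transcription factor of the integrated stress response and drives amino acid synthesis, transport and tRNA charging. Of 41 tested members 40 lay above 0, with a median of 0.51 with NaHS and 0.53 in vehicle. 28 had an unadjusted p under 0.05 upward, where 7.31% of all features had one, and 0 were called, against 2 in vehicle (1.21% of all features). The mean of the list was 3.83, 3.33, 3.90 and 3.06 at 6 h and 4.18, 4.38, 3.95 and 3.82 at 24 h. Replicates 2 and 4 were low at 6 h, and replicate 4 at 24 h lay below 6 h replicates 1 and 3, so the groups overlapped. The median was 0.19 within slide 1 and 0.79 within slide 2.

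Nupr1, a small stress-induced chromatin protein, read 7.44, 6.88, 7.46 and 6.65 at 6 h and 7.92, 7.75, 7.69 and 7.36 at 24 h. Within each slide the 24 h arrays were higher, and the change was 0.57 ± 0.15 (limma adjusted p = 0.139). The starch-binding protein gene Stbd1 had 0.49 ± 0.13, the mitochondrial PEP carboxykinase Pck2 0.72 ± 0.20, the proline synthesis gene Aldh18a1 0.57 ± 0.16 and the asparaginyl-tRNA synthetase Nars 0.52 ± 0.15. Gdf15, a secreted stress cytokine, read -0.90, -0.91, -0.34 and 0.031 at 6 h and 0.34, 0.74, 0.72 and 0.50 at 24 h, without overlap, a change of 1.11 ± 0.33 (adjusted p = 0.187). The ATF4 composite element (CARE, TGATGCAA or TGATGAAA on either strand) stood within 250 bases before the start in 10 of 35 list members with a promoter entry (28.6%), against 1.5% of all tested genes. Nupr1 had the smallest p of the list, and its promoter is shown with the match in capitals (chr7:126625471-126625620, minus strand, GRCm38.p6, RefSeq).
Nupr1: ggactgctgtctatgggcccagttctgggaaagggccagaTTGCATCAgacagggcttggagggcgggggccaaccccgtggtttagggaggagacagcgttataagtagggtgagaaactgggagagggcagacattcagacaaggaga
The capitals hold the element on the strand opposite to the gene.

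**Figure D4:**
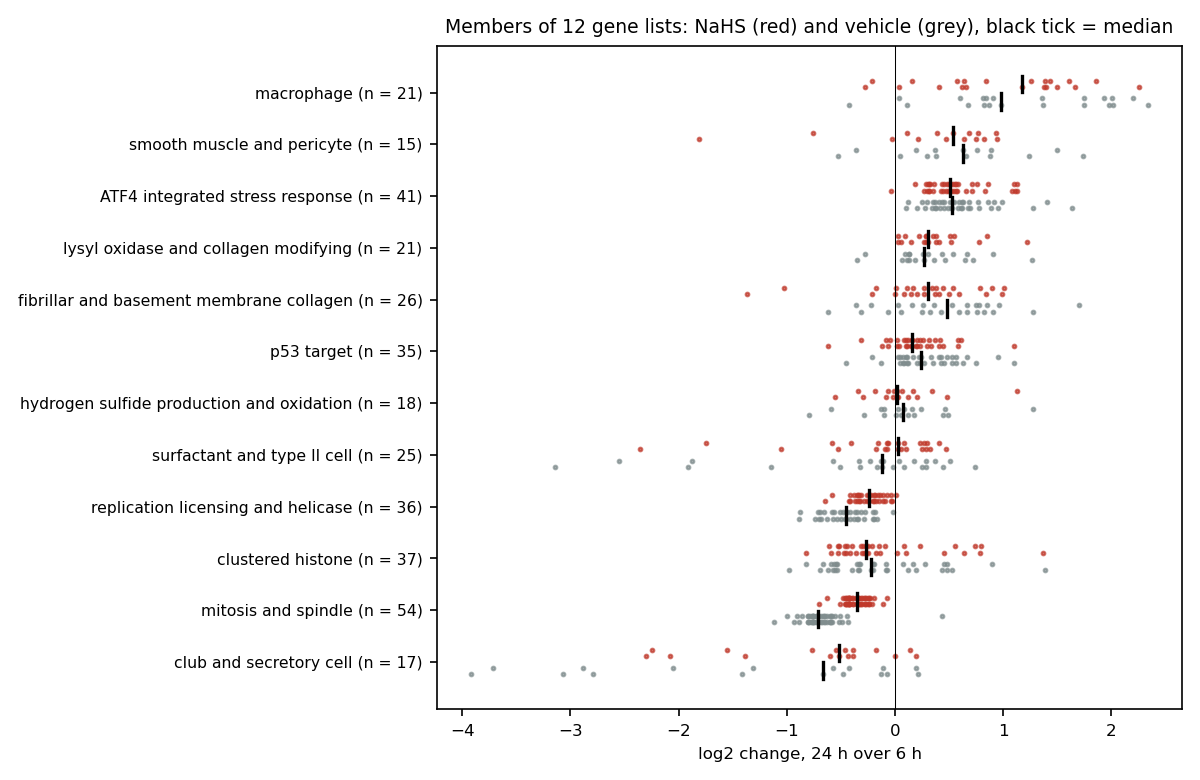
Log2 change from 6 h to 24 h of every tested member of 12 gene lists, red for NaHS and grey for vehicle, with a black tick at the median. ATF4 genes have medians of 0.51 with NaHS and 0.53 in vehicle, mitosis genes -0.35 and -0.71, and members of the macrophage, club cell and collagen lists spread widely.

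Genes of H2S handling were split in sign. Of 18 tested 10 lay above 0, with a median of 0.022 (-0.013 without NaHS 24 h replicate 3) and 0 called. Cbs, which makes H2S from cysteine and homocysteine, read 1.05, 1.0, 1.72 and 0.80 at 6 h and 1.48, 1.21, 1.01 and 1.35 at 24 h, with full overlap and a change of 0.12 ± 0.32. Cth, the other enzyme of transsulfuration and also an ATF4 target, read 2.68, 1.79, 3.37 and 0.81 at 6 h and 3.47, 4.14, 2.90 and 2.66 at 24 h. Its slide 2 arrays were low at 6 h, and the change of 1.13 ± 0.60 had a limma adjusted p of 0.429. Mpst had -0.015 ± 0.097, the mitochondrial sulfide oxidase Sqor 0.022 ± 0.17 and the persulfide dioxygenase Ethe1 0.21 ± 0.078. The sign of Cbs changed with the arrays used, and those of Mpst and Sqor also with the processing, with no call under any alternative. Csad, of taurine synthesis, had 0.34 ± 0.11 and Got1, an aminotransferase, 0.48 ± 0.17.

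Of other stress programmes, NRF2 antioxidant and heat shock genes lay near the median of all features, and HIF genes lay above it. NRF2 antioxidant genes had a median of 0.0017 (18 of 35 above 0; -0.089 without NaHS 24 h replicate 3), heat shock genes -0.013 (10 of 21; -0.024 without it) and genes of the endoplasmic reticulum unfolded protein response 0.055 (17 of 25), with 0 called in each. Genes of the HIF pathway, which responds to low oxygen, had a median of 0.16 (23 of 30) with NaHS and 0.14 in vehicle. The NaHS median was -0.00097 within slide 1, 0.36 within slide 2 and 0.083 without NaHS 24 h replicate 2. Of these 30, 10 had an unadjusted limma p under 0.05 upward and 1 downward, with 0 called. Of the 25 unfolded protein response genes 6 had one upward and 0 downward. Over all features these shares were 7.31% and 6.44%. Pfkfb3, a regulator of glycolysis, had 0.35 ± 0.093, the mitophagy receptor Bnip3 0.77 ± 0.24 and hexokinase Hk2 0.40 ± 0.13, none of them called.

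Epithelial markers showed values of large size and wide spread. Sftpa1, which encodes surfactant protein A, read -2.03, -1.53, -2.83 and -0.23 at 6 h and -3.92, -3.90, -4.93 and -3.29 at 24 h. The groups did not overlap, and the change of -2.36 ± 0.40 narrowly missed the threshold (limma adjusted p = 0.0526), while the vehicle change of -3.14 ± 0.40 passed it. Sftpc, the surfactant protein of type II cells alone, read 3.22, 4.47, 3.12 and 6.29 at 6 h and 1.89, 1.14, 3.26 and 3.84 at 24 h, and its groups overlapped with a change of -1.74 ± 0.79 (adjusted p = 0.355). Sftpb had -1.05 ± 0.56 and the surfactant lipid transporter Abca3 -0.069 ± 0.21, a sign that changed with the arrays used. The whole list of 25 had a median of 0.026, with 0.30 within slide 1, -0.58 within slide 2 and -0.071 without NaHS 24 h replicate 3. Ager, the membrane receptor of type I cells, spanned -0.26, 1.77, -0.49 and 3.81 at 6 h and 1.38, -1.19, 2.67 and 2.89 at 24 h. Its change of 0.23 ± 1.20 also had a sign that changed with the arrays used. The type I list had a median of 0.014, 0.47 within slide 1, -0.49 within slide 2 and -0.15 without NaHS 24 h replicate 3.

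Club and secretory cell genes, which mark airway epithelium, had the lowest median of the 44 lists, at -0.52 (-0.66 in vehicle). Of these genes 14 of 17 lay below 0 and 0 were called. Their medians were -0.52 within slide 1 and -0.65 within slide 2. Scgb3a1, a secretoglobin of airway secretory cells, read 0.25, -0.12, -0.73 and -1.73 at 6 h and -2.58, -3.42, -1.74 and -3.57 at 24 h. All 24 h arrays lay below all 6 h arrays, by the narrowest margin between 24 h replicate 3 and 6 h replicate 4, and the change was -2.25 ± 0.69 (limma adjusted p = 0.196; vehicle -3.71 ± 0.69). Scgb1a1, the main club cell secretoglobin, had -2.08 ± 0.78, the secreted defence protein Bpifa1 -2.30 ± 0.87 and lactoferrin (Ltf) -1.55 ± 0.38. Ciliated cell genes had a median of -0.26, with 0.049 within slide 1, -0.62 within slide 2 and -0.41 without NaHS 24 h replicate 3. The summed signal of the club list ran from 5.29 to 6.63 (log2) over the 6 h arrays and from 3.89 to 5.73 over the 24 h arrays.

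Among the 33 calls, 7 were probes without a gene symbol, and 2 of them lie side by side on chromosome 10. The array design places both in a noncoding transcript at chr10:118427606-118430070 (mm9, reverse strand). They are shown as the designed probe sequences, 5′ to 3′, because the files give them no gene name.
A_30_P01025844 (chr10:118427607-118427666): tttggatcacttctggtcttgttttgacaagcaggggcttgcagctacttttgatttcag
A_30_P01026564 (chr10:118427667-118427726): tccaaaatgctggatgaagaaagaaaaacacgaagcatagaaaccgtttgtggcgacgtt
The first read -4.07, -4.08, -3.60 and -4.09 at 6 h and -2.22, -2.21, -2.54 and -2.83 at 24 h and rose by 1.51 ± 0.24 (limma adjusted p = 0.0476). Its 6 h replicate 3 was higher than the other 3, yet below every 24 h array. The second read -5.40, -5.79, -5.06 and -6.66 and -3.25, -3.39, -3.71 and -4.58 and exceeded background on every 24 h array but on no 6 h array. At 24 h it was 3.99-fold higher as fitted (limma adjusted p = 0.0387). Gm38403, a noncoding gene whose probe lies 69.9 kb away on the same chromosome, rose too. It went from no array to every array above background, a fitted rise of 5.12-fold (limma adjusted p = 0.0349). For both, and for A_30_P01018430, the probe's own 6 h signal was the higher value in the rule used for C1qa. The rule thus gives the fitted fold again and no lower limit. With normexp the fitted changes were far smaller, as given above. These places, and Camsap1 in the next paragraph, were singled out after their values were seen. On other chromosomes, A_30_P01018430 rose 2.38-fold as fitted. It was well above background on 0 of 4 NaHS 6 h arrays, 4 at NaHS 24 h, 1 at vehicle 6 h and 2 at vehicle 24 h. It met the filter on dim probes only with the NaHS 24 h arrays, where it is high, so its test is no independent support. With a filter of 8 arrays it was not tested. A_30_P01023218, above background on all 4 arrays of each group, rose by 1.13 ± 0.18 (limma adjusted p = 0.0498). With normexp its change was 0.24 and not called.

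Another 3 unnamed calls lie within a stretch of chromosome 2 that the array design gives as a noncoding transcript at chr2:25782483-25783075 (mm9, reverse strand). Probes of Camsap1, a gene for a protein that binds microtubule minus ends, flank them, in the same orientation as far as the coordinates and probe names of the array design show, with no annotation of this build used here. The 3 probes rose by 0.63 ± 0.086, 0.64 ± 0.10 and 0.71 ± 0.097. With all 40127 probes fitted one by one, the Camsap1 probe at chr2:25782358-25782417, the last in that direction, rose by 0.66 ± 0.11 (limma adjusted p = 0.0416), with -1.75, -1.92, -1.81 and -1.75 at 6 h and -1.01, -1.07, -1.29 and -1.22 at 24 h. The Camsap1 probes farther upstream had 0.070 ± 0.083 and 0.16 ± 0.10 and were not called. The bright probe at chr2:25784728-25784787 stands for Camsap1 in the gene-level fit. In vehicle the last Camsap1 probe had 0.74 ± 0.11 and the upstream ones 0.11 ± 0.083 and 0.14 ± 0.10, the same pattern.

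**Figure D5:**
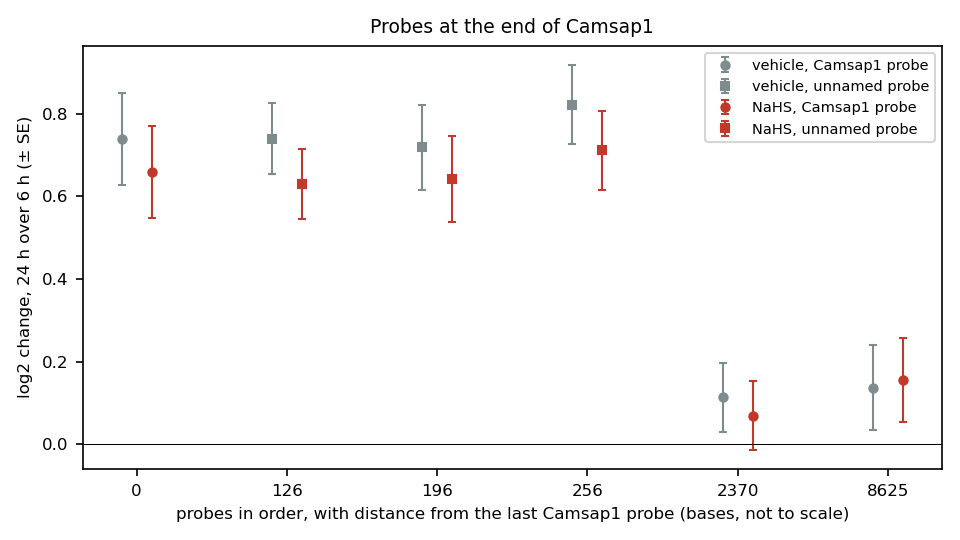
Log2 change from 6 h to 24 h (± SE, from the fit over 16 arrays) of 3 Camsap1 probes (circles) and 3 unnamed probes (squares), red for NaHS and grey for vehicle, in genome order with the distance from the last Camsap1 probe in bases. The 4 probes at 0 to 256 bases lie between 0.63 and 0.82, the probes at 2370 and 8625 bases between 0.070 and 0.16.

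Where the time effect differed most between NaHS and vehicle, no gene passed adjustment. Of the 5 positive differences of smallest p, that of Ank is given above. Cenpm, a centromere protein gene of the division programme, had -0.070 ± 0.089 with NaHS and -0.58 ± 0.089 in vehicle, a difference of 0.51 ± 0.13 (unadjusted p = 0.00150), and its NaHS value near 0 changed sign under 1 alternative. P4ha3, a prolyl hydroxylase subunit, had 0.27 ± 0.10 with NaHS and -0.28 ± 0.10 in vehicle, and Itga2b, an integrin subunit of platelets, 0.93 ± 0.18 and -0.044 ± 0.18. Iqgap2 was well above background on 0 of 4 NaHS arrays at 6 h and 2 of 4 at 24 h, with a difference of 2.25 ± 0.54, and its NaHS change turned sign with normexp background correction. The negative side held dim genes: Cd8a, with -1.09 ± 0.26 and 0.88 ± 0.26, was above background on 2 of 4 arrays at both times with NaHS, and Hsf4, a heat shock factor gene, had -0.42 ± 0.17 and 0.55 ± 0.17. Of the 54 mitosis genes 0 were called for the difference. Their median difference was 0.32, against -0.0093 over all features. These genes were read on the same arrays and are not independent of each other. NaHS 24 h replicate 3 had its mitosis mean at the 6 h level. Vehicle 24 h replicate 3 was the highest vehicle 24 h array, at 1.275 against 0.854 to 1.091. The part of these arrays in the difference was not tested. Without NaHS 24 h replicate 3 the NaHS median of the list was -0.47 in place of -0.35, against -0.71 in vehicle. The median difference without it was not taken.

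Further lists were described by their medians. Endothelial genes had a median of 0.34 (12 of 15 above 0), integrin and laminin genes 0.16 (22 of 31), Notch pathway genes 0.094 (10 of 19) and genes of TGF-beta and matricellular proteins 0.085 (17 of 29). In vehicle these medians were 0.43, 0.12, 0.0080 and 0.20. Transitional alveolar epithelium, a state between type II and type I cells, had -0.14 (8 of 21) and basal cell genes -0.11 (2 of 9). None of these lists held a call. Without NaHS 24 h replicate 3 the integrin and laminin median was 0.10, the Notch median 0.0041 and the basal cell median -0.19. Within slide 1 the Notch median was -0.015, so its sign was not kept. Nor was that of integrin and laminin genes (0.17 within slide 1 and -0.073 within slide 2) or of transitional alveolar epithelium (0.046 and -0.25). Forkhead factors had a median of 0.0032 (15 of 28; -0.0043 without that array), with Foxc2 as the only call.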

How the data were processed

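The files are scanner outputs of 1-colour Agilent arrays, from which the column of processed signals was used. Per the file headers these intensity values were extracted with Agilent Feature Extraction 10.7.3.1, with background subtraction and detrending and no normalization between arrays; probe positions are those of mm9. A table of values deposited by the authors, on a log2 scale after a normalization not given in the sources used here, served as an alternative. Here log2 signal minus the array's 75th percentile was taken over non-control probes, spots of a probe were averaged without outlier spots, and probes well above background on at least 4 of 16 arrays were kept. The probe of highest mean stood for a gene. limma 3.58.1 (R 4.3.3) fitted group means and slide over 16 arrays, with Benjamini-Hochberg adjusted p under 0.05 as a call. limma was tested on simulated data: of 100 features changed by 1 (log2) it called 54%, and of 100 changed by 2 it called 87%. Same-numbered samples of different groups lie on the same slide and deviated together, with correlations of 0.551 to 0.696. After removal of slide these were -0.036 for replicates 1 and 3 and 0.223 for replicates 2 and 4. The genes named are the calls, the genes of smallest p in each list, defining markers and the differences of the time effects with the smallest p. Members and lists were chosen with earlier results of these data known. Alternatives varied slide, replicate block, normalization, background, filter, probe choice, variance model and arrays. Promoter sequences are RefSeq's.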

Additional observations from a re-analysis of the deposited data

Results flagged for a closer look

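In groups of 4 arrays, 302 sets of values (genes named in the text and list means) were checked for 1 array far from the other 3, and chance alone would mark about 1 in 20. Among NaHS 6 h arrays, replicate 3 stood apart for A_30_P01025844 (-3.605 against -4.088 to -4.074), Foxm1 (1.371 against 1.531 to 1.548), Col6a2 (0.7362 against 2.698 to 3.022), H2bc14 (3.303 against 3.001 to 3.02) and the mean of the NRF2 antioxidant list (2.857 against 3.077 to 3.114), all as log2 signal over the 75th percentile. Replicate 4 at 6 h stood apart for the mean of the Notch pathway list (-1.56 against -1.242 to -1.217). Among NaHS 24 h arrays, replicate 1 was high for Cd248 (5.598 against 5.192 to 5.242) and Col8a1 (2.524 against 2.052 to 2.117). Replicate 2 was high for Hspb11 (2.983 against 2.817 to 2.845) and Bnip3 (4.374 against 3.041 to 3.199), and replicate 4 for Col6a1 (4.452 against 3.32 to 3.394). In all, 11 of 302 sets were marked. The rate of 1 in 20 holds for independent sets of 4 like values. Here each group is divided over 2 slides and the sets share arrays, so the share marked is not compared with that rate.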

How the results depend on the processing

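The count of 33 features called with NaHS depended on most choices, and the cause was not tested. It was 9 with no slide term, 58 with slide as a random block, 10 with median centring, 15 with quantile normalization, 15 with the authors' deposited values, 141 with normexp background correction (101 higher and 40 lower), 4 without a filter on dim probes, 15 with the mean over probes, 70 with every probe on its own and 165 with a variance trend. Within slide 1 and within slide 2 it was 0 and 0 by limma (3070 and 2444 at an unadjusted p under 0.05). With the 8 NaHS arrays alone it was 0 (4921 unadjusted), and with the replicate block on those arrays 0 (3978 unadjusted). The replicate block over 16 arrays gave 35, and a filter of 8 arrays 47. Leaving out 1 NaHS array gave 1 to 25 and 1 vehicle array 3 to 26. The 706 vehicle calls became 203 with no slide term, 309 without the filter, 1081 with every probe, 1213 with a variance trend, 0 within slide 1, 1 within slide 2 and 0 with the 8 vehicle arrays alone, and 37 to 828 with 1 vehicle array left out. Leaving out 1 array was added for vehicle arrays and for the other 2 comparisons after seeing the data. The difference of the time effects gave 0 under every alternative run, with 357 to 2099 at an unadjusted p under 0.05. All 33 called features kept their sign under the 32 alternatives where measured, while 17 were called under fewer than 10 of them. Of 3421 values of the named genes, 26 values of 8 uncalled genes had the other sign. These were Marco (-0.10 within slide 2), Abca3 (0.29 within slide 1, -0.18 to 0.12 with 1 array left out), Ager (-1.94 within slide 2, -0.34 to 1.24 with 1 array left out), Cbs (-0.14 within slide 1, -0.019 to 0.31 with 1 array left out), Mpst (0.025 with median centring, 0.0068 with normexp, -0.048 to 0.026 with 1 array left out), Sqor (-0.045 with quantile normalization, -0.045 with the deposited values, -0.096 within slide 2, -0.068 to 0.14 with 1 array left out), Cenpm (0.062 within slide 1) and Iqgap2 (-0.071 with normexp). A probe near background gives a poor estimate of change, and 4 arrays a group limit the precision.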
